A study of Homo sapiens with 2 samples.

Results

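The genes described here are 10 genes of the epidermal lipid barrier: ABCA12, ALOX12, ALOX12B, ALOXE3, CERS3, CYP4F22, ELOVL4, PNPLA1, UGCG and NIPAL4. They were chosen by name, as the non-control probes whose gene name in the array files equals a listed gene, and the rule itself uses no measured value. Together they had 11 probes, of 58201 probes with 43317 gene names on the array. CERS3 had 2 probes and every other gene had 1. Each of these probes had a single spot on each array.

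RNA came from Ca9-22 cells, a cell line of oral squamous cell carcinoma (OSCC), and each group was 1 sample on 1 array. The control vector cells were infected with a lentiviral vector without DLEU1, and the DLEU1 vector cells with a lentiviral vector carrying the full-length cDNA of DLEU1, a long noncoding RNA. Both were selected with blasticidin at 6 mg/ml for 2 weeks, both were grown in RPMI-1640 medium with 10% serum, and 100 ng of total RNA from each was labelled with Cy3. Whether the selected cells were 1 clone or many is not given in the sources used here. Without replicates no test was possible, so every difference below compares these 2 arrays and not the conditions, and having only 2 arrays limits how precise each value is. In bulk RNA, more cells of a kind and more RNA per cell cannot be told apart.

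The outer layer of the skin holds water behind stacked lipid sheets made of ceramides, cholesterol and free fatty acids. Keratinocytes build very long fatty acids, join them to a sphingoid base as ceramide, add linoleate to the far end, and store the product as glucosylceramide in lamellar bodies. After secretion, lipoxygenases oxidise the linoleate and the ceramide becomes bound to the protein envelope of the cell. Inherited loss of many of these genes causes ichthyosis, a scaling disorder of the skin. Much of this machinery belongs to late keratinocyte differentiation, and the lining of the mouth keratinises in some areas and not in others.

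A probe was called detected where the scanner software marked its spot as well above background. Signals are the processed intensities of the deposited files, each with the software's own error estimate for that spot. Levels are log2 of that signal after subtracting the 75th percentile of each array, taken over its non-control probes. Differences are given on this log2 scale as the DLEU1 vector array minus the control vector array, and their error combines the software's errors of both spots. A gene was called at 2-fold or more, which is a difference of 1. Levels were not compared between probes, since probes differ in brightness at the same amount of RNA.

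The array reads a gene through a 60-base probe, so the probes that carry the differences are shown with their place. Coordinates are those of the deposited files (human genome build hg19), each probe is written in the sense of its transcript, and its first 30 bases are printed 5′ to 3′ in lower case. No annotation of that build was used here, so exon and UTR were not assigned. The probes of the genes detected on both arrays, with both CERS3 probes, were these.
ABCA12 probe A_33_P3367984, chr2:215796307-215796336: atacaagtttgtcagctttggcatgactgt
ELOVL4 probe A_23_P82065, chr6:80625111-80625140: ttcttgactccttggtgctaaagattgtta
CERS3 probe A_33_P3408305, chr15:100942776-100942805: ccttccctcccacctaagatgtgtttacca
CERS3 probe A_24_P943017, chr15:100940902-100940931: gtctctgtaccaaatatcttcttgcttaag
UGCG probe A_23_P313389, chr9:114691888-114691917: gcaggaggacttatagcttttgctcagtac
ALOX12B probe A_23_P83634, chr17:7978946-7978975: cggaattgcagtcttgggtgcaggaaatat
ALOXE3 probe A_24_P347880, chr17:8006703-8006732: tgaagacttacctagacaccctccctgaag
All but the UGCG probe lie on the minus strand.

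DLEU1 itself was higher with the DLEU1 vector. Its brightest probe had levels of 3.17 (control vector) and 5.91 (DLEU1 vector), 6.67-fold apart (2.74), and the other DLEU1 probes differed by 0.85 and 0.54. Probes detected numbered 27731 (47.6%) for the control vector and 27969 (48.1%) for the DLEU1 vector, and 20246 genes were detected on both. The SD of a log2 difference between replicated spots was 0.08 over 282 probes, and it holds no variation between cultures. Of the 7 epithelial markers all 7 were detected on both arrays. At least 2-fold higher with the DLEU1 vector were 5 (71.4%, against 9.18% of all genes), among them KRT14 (2.85) and KRT6A (2.91), while EPCAM differed by -0.78. Of the 6 fibroblast markers, COL1A1 (3.99) and PDGFRB (-0.33) were detected on both arrays, LUM on the DLEU1 vector array alone, and COL1A2, COL3A1 and DCN on neither. Of the leukocyte markers reported, PTPRC (0.45) and CD14 (-1.60) were detected on both, and CD3E on neither. Of the 3 endothelial markers, VWF (3.70 by its brightest probe, -0.07 by its lowest) and CDH5 (-0.59) were detected on both, and PECAM1 on neither. The part of these epithelial markers in the differences below was not tested.

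Of the 10 barrier lipid genes, 6 were detected on both arrays: ABCA12, CERS3, ELOVL4, UGCG, ALOX12B and ALOXE3. By the value of each gene, 5 of these 6 were higher with the DLEU1 vector and UGCG was lower. ABCA12 alone passed 2-fold, so 1 of the 6 was called higher, which is 16.7%, against 9.18% of all genes detected on both arrays. No gene of the 6 was called lower (0), against 9.78% of all genes. The median difference of the 6 was 0.48, and that of all 20246 genes was -0.07. At 1.5-fold, 3 of the 6 were higher (ABCA12, ELOVL4 and ALOX12B), against 18.4% of all genes, and 1 was lower (UGCG), against 22% of all genes. With so few genes, 1 call more or less moves the share past the background. The other 4 genes, ALOX12, CYP4F22, NIPAL4 and PNPLA1, were detected on neither array. Of all 43317 genes, 20774 were detected on neither array and 20246 on both.

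**Figure D1:**
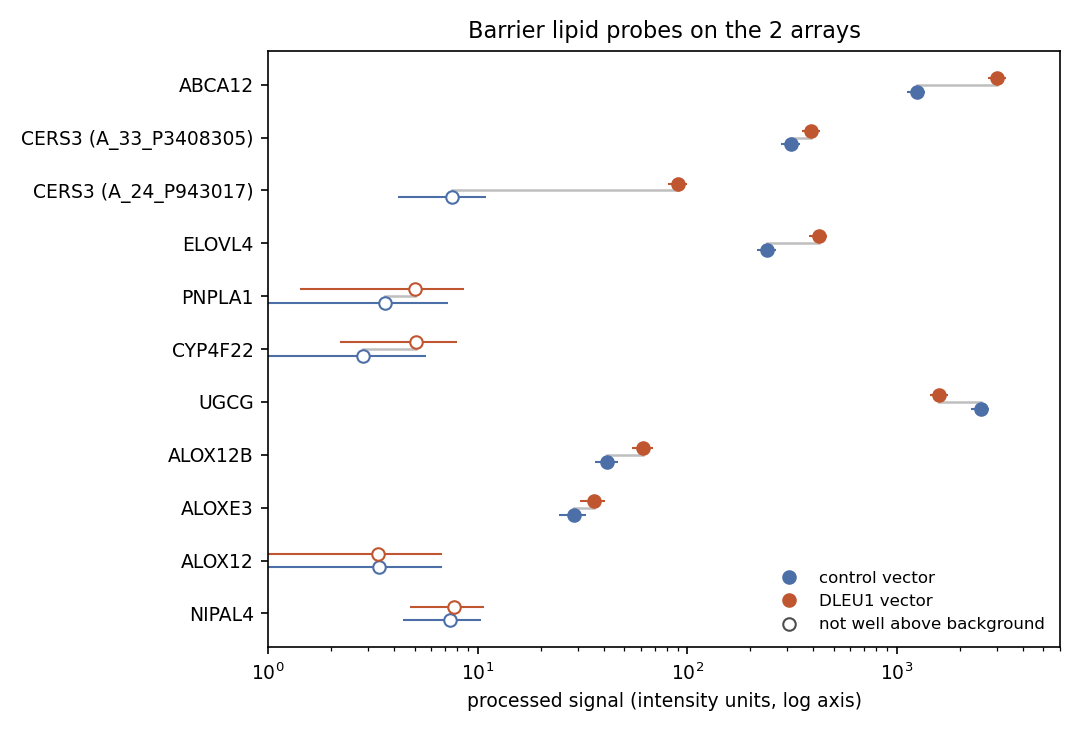
Processed signal of the 11 probes on each array (log axis, intensity units), with the software's error estimate as a bar, which runs to the left edge of the plot where it is as large as the signal. Filled points were detected and open points were not well above background. ABCA12 went from 1245 to 3021 and UGCG from 2512 to 1598, while ALOX12, CYP4F22, NIPAL4 and PNPLA1 stayed between 2.82 and 7.73 on both arrays.

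ABCA12 is the transporter that loads glucosylceramide into lamellar bodies, and its loss causes harlequin ichthyosis. Its probe lies on chromosome 2 from 215796277 to 215796336. The signal was 1245 ± 125 (software error, 1 spot) in control vector cells and 3021 ± 302 in DLEU1 vector cells. The level was 2.36 in the former and 3.68 in the latter, a difference of 1.32 ± 0.20 (software error), or 2.49-fold. Of all genes detected on both arrays, 5.60% had a higher difference. ABCA12 therefore stood above the call threshold by more than the error of its own spots. With the spike-in probes set equal on both arrays the difference was 0.92, under 2-fold.

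UGCG, which encodes the ceramide glucosyltransferase that makes the lipid ABCA12 carries, went the other way. Its probe lies on chromosome 9 from 114691888 to 114691947. The signal was 2512 ± 251 in control vector cells and 1598 ± 160 in DLEU1 vector cells. The level was 3.37 in the former and 2.76 in the latter, a difference of -0.61 ± 0.20, or 1.53-fold lower. Of all genes, 20.9% had a lower difference, so UGCG lay well inside the range of the array. It was the only one of the 6 detected genes with a lower value under the main setting, and with the spike-in probes set equal its difference was -1.01, which passes 2-fold.

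Among the genes that build the ceramide chain, ELOVL4 and CERS3 were detected. ELOVL4 is the elongase that makes fatty acids of ultra-long chain. Its probe lies on chromosome 6 from 80625081 to 80625140, and its signal was 240 ± 24.3 in control vector cells and 424 ± 42.6 in DLEU1 vector cells. The difference was 0.86 ± 0.21, or 1.81-fold, and 11.5% of all genes had a higher one. ELOVL4 fell short of 2-fold by less than its error, and it passed (1.02) when the median difference of the 100 nearest spots was subtracted.

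CERS3 is the ceramide synthase that takes these ultra-long chains as substrate, and its probes did not give the same answer. The brighter probe, A_33_P3408305, lies on chromosome 15 from 100942746 to 100942805. Its signal was 313 ± 31.5 in control vector cells and 392 ± 39.3 in DLEU1 vector cells, a difference of 0.36 ± 0.20 or 1.28-fold. The other probe, A_24_P943017, lies 1814 bases away on the same chromosome, from 100940872 to 100940931. It was not well above background on the control vector array (7.57 ± 3.40) and was detected on the DLEU1 vector array (90.2 ± 9.62), which is at least 6.52-fold higher. Of all probes, 2.9% were likewise detected on the DLEU1 vector array alone. With normexp background correction, which lifts dim signals, the same probe differed by 1.18 and the brighter one by 0.31.

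With the second probe taken at its bound, the CERS3 probes were at least 2.34 apart on the log2 scale under the main setting. Among 4674 genes with at least 2 probes detected on both arrays, the median range between probes was 0.35. CERS3 is not among these, since its other probe was detected on 1 array only. Among 5277 genes with at least 2 probes detected on at least 1 array, the median range was 0.41, taken without bounds. CERS3 thus counted as not called by its brighter probe, which the rule uses, and as higher by its other probe. Which transcript each probe reads was not resolved here.

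PNPLA1 and CYP4F22 act in the step that puts linoleate on the chain end: CYP4F22 hydroxylates the far end of the ultra-long fatty acid and PNPLA1 transfers the linoleate to it. Neither was detected on either array. The PNPLA1 probe (chromosome 6 from 36275374 to 36275433) gave signals of 3.59 in control vector cells and 5.02 in DLEU1 vector cells, and the CYP4F22 probe (chromosome 19 from 15662720 to 15662779) gave 2.82 and 5.07. The software's errors on these spots were between 2.84 and 3.60, as large as the signals on the control vector array. Negative-control spots, which match no human transcript, had a median signal of 3.34 (control vector) and 3.35 (DLEU1 vector), and their 95th percentiles were 3.83 and 3.85. Both probes lay below that percentile on the control vector array and above it on the DLEU1 vector array. On neither array were they well above background by the software's rule. The software did mark both as above zero on the DLEU1 vector array, and not on the control vector array. A difference between values this near background could not be read here.

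The lipoxygenases ALOX12B and ALOXE3 act one after the other on the linoleate of barrier ceramides: ALOX12B adds the peroxide and ALOXE3 turns it into an epoxy alcohol. Both were detected, and both were dim. The ALOX12B probe (chromosome 17 from 7978916 to 7978975) had a signal of 41.5 ± 5.31 in control vector cells and 61.4 ± 6.95 in DLEU1 vector cells, a difference of 0.60 ± 0.25 or 1.52-fold. The ALOXE3 probe (chromosome 17 from 8006673 to 8006732) had 28.6 ± 4.34 and 35.7 ± 4.86, a difference of 0.36 ± 0.29 or 1.28-fold. Both values were higher with the DLEU1 vector and neither reached 2-fold. Of all genes, 17.9% had a higher difference than ALOX12B and 27.3% a higher one than ALOXE3. The ALOXE3 difference was close to its own error, and with the spike-in probes set equal it was -0.04. These genes are neighbours, and their probes lie 27697 bases apart.

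ALOX12, the platelet-type enzyme that oxidises arachidonate, lies 1064946 bases from ALOX12B by their probes and was detected on neither array. Its probe (chromosome 17 from 6913910 to 6913969) gave 3.37 in control vector cells and 3.35 in DLEU1 vector cells, at the level of the negative controls. NIPAL4, a membrane protein related to magnesium transporters whose loss causes ichthyosis, was not detected either. Its probe (chromosome 5 from 156901670 to 156901729) gave 7.40 and 7.73, above the 95th percentile of the negative controls on both arrays but not well above background by the software's rule.

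**Figure D2:**
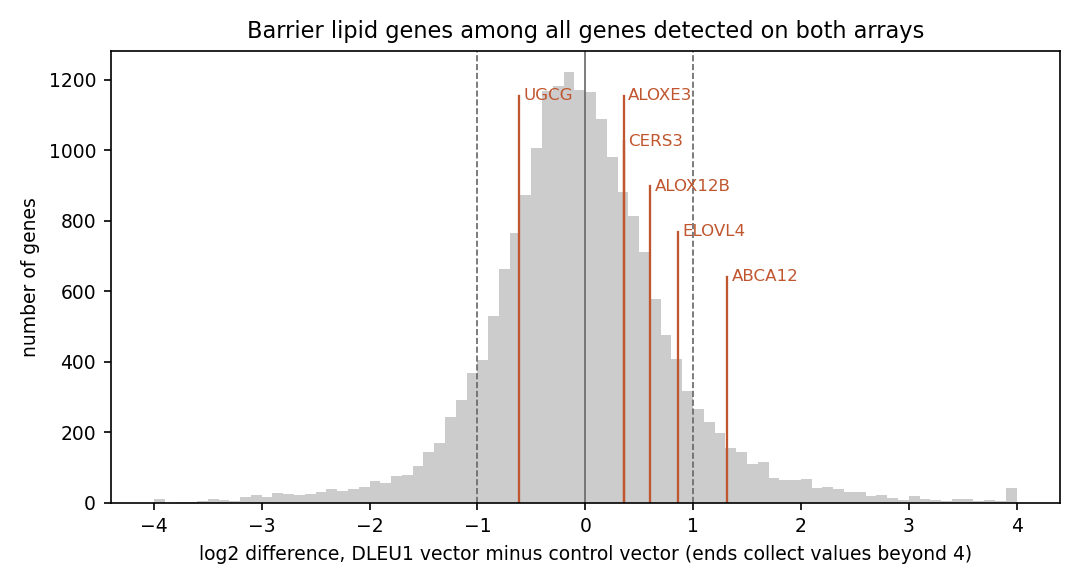
Log2 differences of all 20246 genes detected on both arrays (grey, number of genes in bins of 0.1 along the x axis), with the 6 detected barrier lipid genes as lines whose height has no meaning. Dashed lines mark 2-fold; ABCA12 at 1.32 lies beyond it, and the other 5 genes lie between -0.61 and 0.86.

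To set these genes in their pathways, 73 other genes were grouped in 5 lists, of which 55 were detected on both arrays. Of these, 7 were at least 2-fold higher with the DLEU1 vector (12.7%, against 9.18% of all genes) and 2 were lower (3.64%, against 9.78%). Of the 7 called higher, 4 were ABCA transporters, a family with 8 of the 55 genes. Another 3 were detected on the DLEU1 vector array alone, 2 on the control vector array alone and 13 on neither. The median difference of the 55 genes was 0.07. The lists did not move together: the median was -0.09 for ceramide synthesis, 0.01 for fatty acid elongation and -0.03 for sphingolipid processing. It was 0.45 for the lipoxygenase pathway and 0.96 for the remaining list, in which only ABCA transporters were detected on both arrays.

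Ceramide synthesis had 14 genes, of which 12 were detected on both arrays and none passed 2-fold by its brightest probe (0 higher, 0 lower). SPTSSA, a small subunit of serine palmitoyltransferase, had probes that disagreed, at 0.17 for the brighter and 1.43 for the other, which is past 2-fold. The highest differences by the brightest probe were those of SPTLC2, a subunit of the same enzyme, which starts the pathway (0.66), and the ceramide synthase CERS4 (0.53). The lowest were those of the desaturase DEGS1, which turns dihydroceramide into ceramide (-0.75), and CERS2, the synthase for very long chains (-0.69). All 5 ceramide synthases other than CERS3 were detected, and they lay between -0.69 and 0.53, with a median of -0.33 against 0.36 for the brighter CERS3 probe.

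Fatty acid elongation and activation had 20 genes, of which 18 were detected on both arrays, 0 were called higher and 1 was called lower by the brightest probe. The called gene was ELOVL6, the elongase that makes stearate from palmitate, with a difference of -2.01 or 4.03-fold lower, and its other probe gave -1.97. The other detected elongases were ELOVL1 (-0.56), ELOVL5 (-0.81) and ELOVL7 (0.0015), so none of these 4 reached the 0.86 of ELOVL4. ELOVL2 and ELOVL3 were detected on neither array. PNPLA3, a lipase family member like PNPLA1, was low (-0.98) but short of 2-fold, while the triglyceride lipase PNPLA2 (0.73) and the acyl-CoA synthetase ACSL5 (0.57) were highest. The other PNPLA2 probe gave 1.28, past 2-fold. HACD1, a dehydratase of the elongation cycle that the file lists under its older name PTPLA, had probes at -0.71 and 1.30.

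Sphingolipid processing had 13 genes, of which 11 were detected on both arrays, 1 was called higher and 1 lower. PSAP, the precursor of the saposins that help glucosylceramidase, was 5.02-fold higher (2.33), and its other probe gave 2.37. The alkaline ceramidase ACER3 was 4.11-fold lower (-2.04), with levels of -0.88 (control vector) and -2.92 (DLEU1 vector), the latter dim. The sphingomyelin synthase SGMS1 (0.88) and the neutral ceramidase ASAH2 (-0.95) were the next in each direction and were not called. SMPD3, a neutral sphingomyelinase, was detected with the control vector alone, at least 3.27-fold lower with the DLEU1 vector. ACER1, the ceramidase of differentiating epidermis, was detected with the DLEU1 vector alone, at least 1.26-fold higher.

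The lipoxygenase pathway had 10 other genes, of which 6 were detected on both arrays, 2 were called higher and 0 lower. LTC4S, the leukotriene C4 synthase, differed by 1.57 and the epoxide hydrolase EPHX2 by 1.07. LTC4S was dim, with levels of -2.93 (control vector) and -1.36 (DLEU1 vector). EPHX3, a hydrolase that acts on epoxides of linoleate, differed by 0.11 and LTA4H, the leukotriene A4 hydrolase, by -0.09. Among the other lipoxygenases, ALOX15B differed by 0.49, ALOX5 was detected with the DLEU1 vector alone (at least 3.51-fold higher) and ALOX15 was detected on neither array. ALOX15B thus lay between ALOXE3 and ALOX12B. SDR9C7, the dehydrogenase that follows ALOXE3 in the barrier pathway, was detected on neither array.

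The remaining list held 16 genes, and the 8 detected on both arrays were all ABCA transporters. Of these, 4 were called higher and 0 lower: ABCA2 (1.92), ABCA3 (1.62), ABCA5 (1.53) and ABCA1 (1.05), which export or traffic lipids in other cell types. The ABCA2 value rests on the 1 of its 2 probes detected on both arrays, with levels of -1.97 (control vector) and -0.05 (DLEU1 vector). ABCA7 (0.88), ABCA13 (0.34), ABCA9 (-0.03) and ABCA10 (-0.17) were not called. ABCA12, at 1.32, was thus inside the range of its family. SULT2B1, which makes cholesterol sulfate, was detected with the DLEU1 vector alone (at least 8.36-fold higher), and STS, the sulfatase that removes the sulfate, with the control vector alone (at least 1.42-fold lower with the DLEU1 vector). The epidermal lipases LIPK, LIPM and LIPN were detected on neither array.

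**Figure D3:**
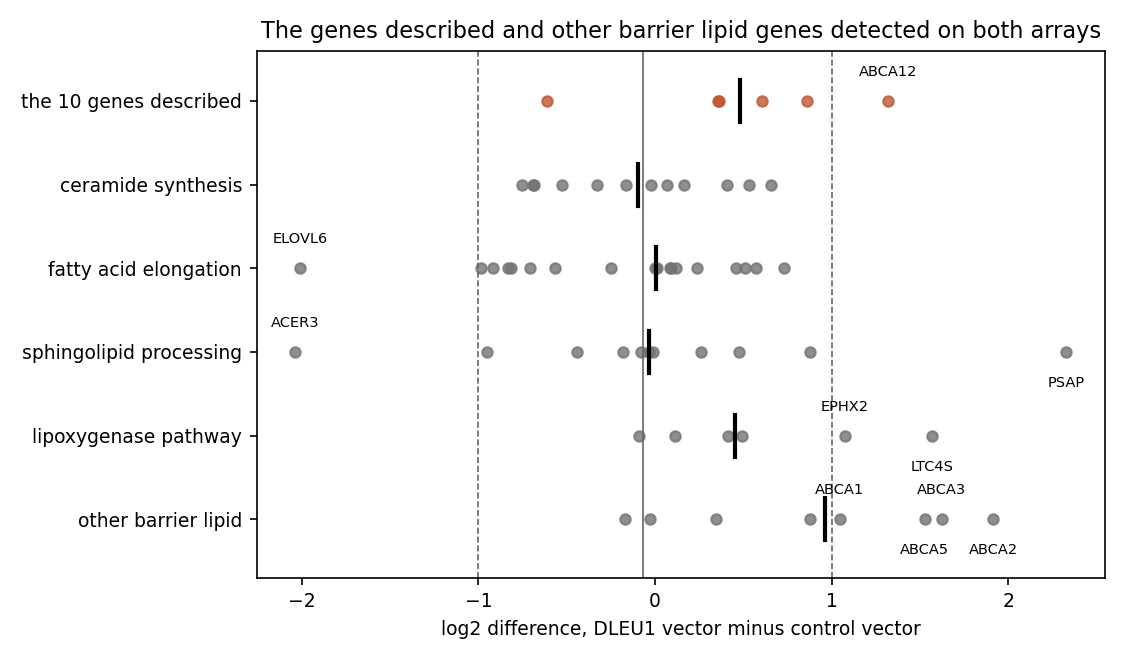
Log2 difference (x axis) of each gene detected on both arrays, for the genes described here and for the 5 pathway lists (rows), with the list median as a black bar, the median of all genes (-0.07) as a grey line and 2-fold as dashed lines. The ABCA transporters reach 1.92 and have a median of 0.96, while no ceramide synthesis gene passes 2-fold by its brightest probe, which is the one plotted.

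Of the 6 other scalings run, setting the spike-in probes equal was the one that changed which barrier lipid genes passed 2-fold. ABCA12 was between 0.92 (spike-in probes set equal) and 1.47 (loess), and ELOVL4 was between 0.46 (spike-in probes set equal) and 1.02 (median of the 100 nearest spots subtracted). ALOX12B was between 0.21 and 0.72 and UGCG between -1.01 and -0.44, so these 4 genes kept their sign under every setting run. CERS3 and ALOXE3 each had a value of -0.04 with the spike-in probes set equal and up to 0.47 otherwise, so their sign depended on the scaling. With the spike-in probes set equal the median of all genes was -0.47, 5.01% of all genes were 2-fold higher and 21.4% were lower. The spike-in scale rests on 8 probes. The gap between the median of the 6 genes and the median of all genes was 0.55 on that scale, as under the main setting, since a constant moves both alike. Under settings that do not move all genes alike the gap differed. It was 0.36 with normexp, 0.48 with quantiles, 0.73 with a signal of at least 100 (4 genes) and 0.40 without a filter on dim probes (10 genes).

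**Figure D4:**
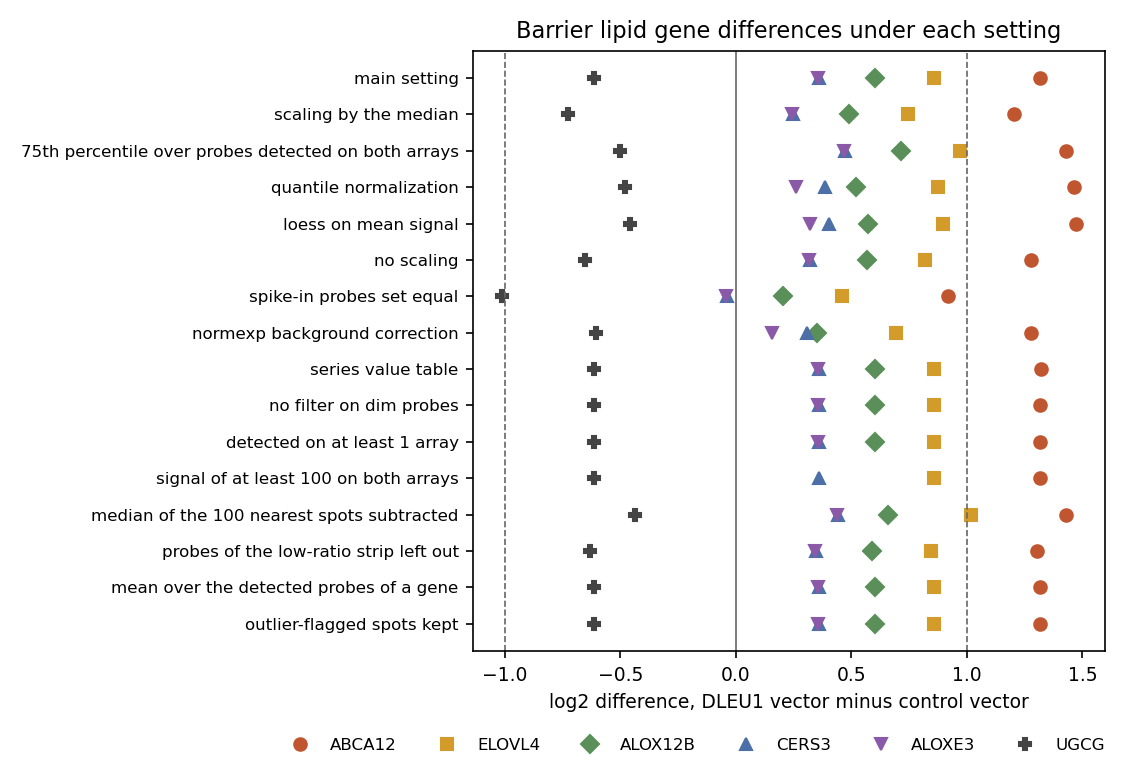
Log2 difference (x axis) of the 6 genes detected on both arrays under the main setting and each alternative of scaling, background, filter and position (rows), with 2-fold as dashed lines. ABCA12 is the highest point in every row, UGCG the lowest, and the row with the spike-in probes set equal lies furthest left; ALOX12B and ALOXE3 are missing from the row that needs a signal of at least 100.

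The start sites of the genes were looked at for what they share. RefSeq windows from 250 bases before to 50 bases after each annotated start (GRCh38.p14) were matched by symbol for all 10 genes, which gave 18 windows. The letters TGANTCA, bound by AP-1 factors, occurred on either strand in 2 windows, both of ALOXE3 and overlapping each other, and in 7.71% of all 35116 windows. AACCNGTT, the grainyhead-like motif, occurred in 0 of the 18 windows and in 1.73% of all. GGGCGG, bound by SP1 and KLF factors, occurred in 9 windows of 8 genes and in 45.0% of all windows, and TATAAA occurred in 1 window, of ABCA12, and in 11.5% of all. A match is a description of letters and not of binding. The 250 bases before a start are shown for the called gene, ABCA12, and for UGCG, the gene with the opposite sign, with GGGCGG or its reverse complement in capitals.
ABCA12, chr2:215138627-215138876, minus strand: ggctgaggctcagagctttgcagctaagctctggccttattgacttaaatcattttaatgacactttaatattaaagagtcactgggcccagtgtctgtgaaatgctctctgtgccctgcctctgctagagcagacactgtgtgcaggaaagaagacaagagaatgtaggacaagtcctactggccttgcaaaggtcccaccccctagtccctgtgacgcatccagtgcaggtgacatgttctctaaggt
UGCG, chr9:111896564-111896813, plus strand: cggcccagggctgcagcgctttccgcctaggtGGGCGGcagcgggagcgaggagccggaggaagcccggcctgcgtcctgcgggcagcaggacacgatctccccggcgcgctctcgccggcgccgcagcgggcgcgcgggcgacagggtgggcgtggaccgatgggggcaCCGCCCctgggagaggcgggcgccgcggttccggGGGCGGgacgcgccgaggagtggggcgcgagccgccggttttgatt
The UGCG stretch had a GC content of 78.4% and 3 matches to GGGCGG, while the ABCA12 stretch shown had a GC content of 48.8% and none of the motifs searched. The other ABCA12 window, not shown, had a GC content of 36.4% before its start. It held the TATAAA match, which lay past the start.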

How the data were processed

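Total RNA of Ca9-22 cells with a control vector or a DLEU1 vector (1 sample each) was hybridised to Agilent 1-colour SurePrint G3 arrays. Per the labels, Agilent Feature Extraction 10.7 gave the deposited intensity values and per the file headers subtracted background and detrended each array; the authors analysed them in GeneSpring. The deposited series values were the same intensity, within 0.497%. Neither was normalized between arrays, and slide and scan were shared.

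Control spots and spots marked as outliers (84 with the control vector, 103 with the DLEU1 vector) were left out, log2 signals were averaged per probe, and the 75th percentile (7.92 and 7.88) was subtracted. A gene was read from its brightest probe detected on both arrays. A probe detected on 1 array only was given as a bound, the bright level against the higher of the lowest detected level on the dim array and its own level there, so that "at least" refers to that floor. No spot was saturated (0), and no test or p-value was computed.

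The genes described and the pathway and marker lists were chosen with earlier results of these data known. Another marker of these lists is not reported here. Named from each list were the 2 highest and 2 lowest genes and up to 2 of the largest bounds; ABCA1, ABCA5, ABCA7, ABCA13, ALOX15, ALOX15B, ELOVL1, ELOVL2, ELOVL3, ELOVL5, ELOVL7, HACD1, SDR9C7, LIPK, LIPM, LIPN and SPTSSA were added with their values seen. Alternatives were scaling by the median, by detected probes, quantiles, loess (span 0.3), none or spike-ins, normexp with an offset of 50 (limma 3.58.1), the series values, other filters on dim probes, position on the array, mean over probes, outlier spots kept, and thresholds of 1.5 and 3-fold. Code ran in Python 3.11.15 and R 4.3.3 and was tested on simulated data.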

Additional observations from a re-analysis of the deposited data

How the results depend on the processing

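Of the barrier lipid genes, the number called higher was 1 and the number called lower 0 under the main setting. With the spike-in probes set equal these were 0 and 1 (UGCG), at 1.5-fold 3 and 1, and at 3-fold 0 and 0. At 3-fold, 3.82% of all genes were higher and 3.31% were lower. Subtracting the median of the 100 nearest spots gave 2 higher and 0 lower, against 10.703% and 8.04% of all genes. The median difference of the barrier lipid genes (0.48) was 0.37 with median scaling, 0.084 with spike-ins and 0.33 with normexp. It was 0.59 when the 75th percentile was taken over detected probes and 0.61 with a signal of at least 100. In the pathway lists the 7 called higher became 5 with median scaling, spike-ins, normexp or a signal of at least 100. The number was 8 with quantiles, loess, the nearest spots subtracted or the mean over probes, and 9 with detection on at least 1 array. Without a filter on dim probes, where all 73 list genes were counted and not the 55 of the main setting, it was 12. At 1.5-fold it was 11 and at 3-fold 3. The filters on dim probes change how many genes are counted, so counts under them are not like for like. The 2 called lower became 5 with median scaling, 3 with quantiles or no scaling, 11 with spike-ins and 1 with normexp. Without a filter they became 4, with detection on at least 1 array 4, with a signal of at least 100 1, and at 1.5-fold 11. Of 88 values of single genes under the alternatives, 56 stayed within the spot SD of the main value, 32 moved by more and 2 of these changed sign, CERS3 and ALOXE3 with spike-ins. Spike-in scaling shifts every gene by one constant and normexp lifts dim signals; beyond that the cause was not tested. The median of all genes was -0.18 with median scaling, 0.04 when scaled on detected probes and -0.47 with spike-ins. The share of all genes 2-fold higher and lower was 9.18% and 9.78% under the main setting, 7.73% and 12.1% with median scaling, 10.9% and 7.78% with detected probes, and 5.01% and 21.4% with spike-ins. On the DLEU1 vector array, columns 37 to 40 of the upper part held a strip where 46.5% of lit spots were 2-fold lower, against 12.8% outside. Its limits were set with the data in view, and it held 0 of the 11 probes. Signal over background limits ALOX12, CYP4F22, NIPAL4 and PNPLA1. No paired analysis was possible because each group had 1 sample.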
